A study of Mus musculus with 9 samples.

Results

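The Schlafen genes are a rodent-expanded family, several of whose members restrain lymphocyte growth or respond to interferon. 5 of them, Slfn1, Slfn2, Slfn5, Slfn8 and Slfn9, were read by symbol from a count table of 55011 genes that holds 11 symbols starting with Slfn. They were followed through mouse CD8 T cells exposed to the enantiomers of 2-hydroxyglutarate, mirror-image acids that differ in how their hydroxyl group is oriented. Tumours with mutant isocitrate dehydrogenase accumulate D-2HG. Naive CD8 T cells, taken from spleens of wild-type mice, were activated for 6 h on plates coated with antibodies to CD3 and CD28 (4 µg/mL). The groups were cells given 20 mM D-2HG from the moment of stimulation, cells given 20 mM L-2HG in the same way, and activated control cells with no added metabolite, with 3 libraries each. No unstimulated cells were compared, so the values describe 3 kinds of activated cell and not the loss of quiescence itself. Since no label ties the libraries of a group to separate mice or cultures, the p-values reflect only how these libraries vary, and that variation may be technical.

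Quiescence is the state in which naive T cells stay small, translate little and do not divide until the antigen receptor is engaged. Slfn2 is the Schlafen gene most closely tied to it in mice: T cells of the elektra strain, which carries a mutated Slfn2, leave quiescence without stimulation and die when activated, and the Slfn2 protein has been described as shielding transfer RNAs from cleavage by angiogenin during activation. Slfn1 was found as a growth-suppressing gene of the thymocyte lineage. Both encode short Schlafen proteins, whereas Slfn5, Slfn8 and Slfn9 encode long ones that add a helicase-like domain.

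Library totals lay between 562627 counts (L-2HG replicate 2) and 5731885 counts (control replicate 3). Levels are given as CPM, a gene's count scaled to the TMM-adjusted total of the tested genes. A gene passed when its p, adjusted by Benjamini-Hochberg over all 10235 genes tested with edgeR's quasi-likelihood test, was under 0.05. Reads of 2 satellite-repeat genes took 9.22 ± 6.95% of counts with D-2HG, 13.0 ± 9.90% with L-2HG and 2.56 ± 2.43% in controls (SD, n = 3). Mitochondrial genes took 1.54 ± 0.481%, 1.49 ± 0.322% and 2.66 ± 0.416% in the same order, and sensory receptor genes, which T cells do not use, held 1028 ± 217, 2021 ± 1157 and 474 ± 333 CPM of all counts. Control replicate 2 stood apart from the other controls. Satellite-repeat reads took 5.35% of its counts, against 1.43% in control replicate 1 and 0.910% in control replicate 3. Each result that rests on control replicate 2 is therefore also given without it. The treated libraries were uneven as well. Satellite-repeat reads took 24.4% of counts in L-2HG replicate 2, the smallest library, and 17.0% in D-2HG replicate 3. The other treated libraries had 3.79 to 7.98%, so control replicate 2 is not the only library that stood apart. Cd8a, the CD8 co-receptor chain, was at 784 ± 59.4 CPM with D-2HG, 729 ± 111 CPM with L-2HG and 918 ± 205 CPM in controls, and Cd3e, a subunit of the receptor complex, was at 250 ± 102, 372 ± 74.3 and 465 ± 65.3 CPM in the same order. None of the listed neutrophil, NK cell, erythroid or platelet markers passed the count filter. The summed level of 7 macrophage and monocyte markers was 4.11 to 8.13 CPM with D-2HG, 5.48 to 9.51 CPM with L-2HG and 4.499 to 8.24 CPM in controls, with Fcgr1 at 0 throughout. In bulk RNA, fewer cells of a type and less RNA per cell cannot be told apart.

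The members occupy 171 kb of mouse chromosome 11 (chr11:82951349-83122670, mm10, GENCODE M21). From low to high coordinates the order is Slfn5 on the plus strand, Slfn9 and Slfn8 on the minus strand, and Slfn2 and Slfn1 on the plus strand. The pseudogene Slfn10-ps lies between Slfn8 and Slfn2 on the minus strand. Slfn2 (ENSMUSG00000072620, chr11:83065112-83070678) has 1664 exonic bases and Slfn1 (ENSMUSG00000078763, chr11:83116849-83122670) has 1864. Slfn8 (ENSMUSG00000035208, chr11:83002158-83020810) has 4091, Slfn9 (ENSMUSG00000069793, chr11:82978390-82991830) 5965 and Slfn5 (ENSMUSG00000054404, chr11:82951349-82964840) 6326. The deposited tables pair 4 identifiers each with the symbols Slfn2 and Slfn1, 2 with Slfn8 and 1 each with Slfn9 and Slfn5, so the identifiers, lengths and values per kb given here are those of the GENCODE gene of that symbol. 3 of the 5 members, Slfn1, Slfn2 and Slfn8, held enough counts to be tested, and Slfn5 and Slfn9 did not. Of the 6 other Slfn symbols only Slfn10-ps was tested.

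The promoters of the 3 tested members are shown because the short-protein genes Slfn2 and Slfn1 hold one of the motifs searched and Slfn8 another. Each line runs 5′ to 3′ on the gene's own strand from 250 bases before to 50 bases after the RefSeq start (GRCm38.p6). Capitals mark ACTTCCTG, an ETS-type motif, in Slfn2 and Slfn1, and the interferon-stimulated response element (GAAA, any 2 bases, GAAA), which lies on the opposite strand, in Slfn8.
Slfn2, chr11:83064862-83065161, plus strand: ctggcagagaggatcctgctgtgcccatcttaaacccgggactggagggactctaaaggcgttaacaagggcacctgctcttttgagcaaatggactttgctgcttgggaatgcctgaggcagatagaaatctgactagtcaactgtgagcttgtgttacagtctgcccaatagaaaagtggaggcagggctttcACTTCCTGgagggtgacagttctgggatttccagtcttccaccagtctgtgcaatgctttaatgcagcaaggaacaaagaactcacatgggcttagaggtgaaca
Slfn1, chr11:83116570-83116869, plus strand: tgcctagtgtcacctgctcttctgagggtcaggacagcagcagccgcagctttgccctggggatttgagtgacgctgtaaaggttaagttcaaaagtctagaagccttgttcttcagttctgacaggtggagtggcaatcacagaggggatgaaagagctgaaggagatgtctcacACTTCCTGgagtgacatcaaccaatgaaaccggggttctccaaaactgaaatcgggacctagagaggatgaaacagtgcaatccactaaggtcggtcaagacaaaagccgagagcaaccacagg
Slfn8, chr11:83020761-83021060, minus strand: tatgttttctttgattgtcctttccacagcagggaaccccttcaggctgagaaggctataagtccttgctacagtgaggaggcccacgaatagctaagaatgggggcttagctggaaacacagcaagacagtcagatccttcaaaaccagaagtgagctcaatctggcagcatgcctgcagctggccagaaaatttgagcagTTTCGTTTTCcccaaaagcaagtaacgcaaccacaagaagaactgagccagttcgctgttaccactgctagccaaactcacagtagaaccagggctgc

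The interferon-stimulated response element, searched on both strands, was present in the promoters of 3 of the 5 members, Slfn5, Slfn8 and Slfn9, and in 3.44% of all 32851 RefSeq promoters of that length. In Slfn8 and Slfn9 it had the same 10 letters, TTTCGTTTTC, beginning 48 and 45 bases before the start. The letters ACTTCCTG were found in Slfn2 and Slfn1, 55 and 74 bases before the start, also in Slfn3 and Slfn4, and in 3.33% of all promoters. They were chosen after the sequences had been read, so that count describes these windows only. The gamma-activated site TTCNNNGAA (8.3% of all promoters) and the FOXO motif GTAAACA (3.65%) were in none of the 5 windows. Slfn8 has a second RefSeq start, and its window holds the same element 136 bases before that start. A match describes letters, not binding.

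Slfn2 was the main Schlafen transcript in every library. Per kilobase of exon it stood at 165 ± 18.7 CPM per kb with D-2HG, 154 ± 26.3 with L-2HG and 359 ± 83.7 in controls, while Slfn1 stood at 17.1 ± 3.09, 31.2 ± 6.66 and 48.1 ± 13.3 CPM per kb. Slfn10-ps and Slfn8 lay lower, at 4.92 ± 1.85 and 3.00 ± 0.502 CPM per kb with D-2HG, 4.81 ± 1.10 and 4.74 ± 0.948 with L-2HG, and 2.35 ± 0.930 and 2.87 ± 2.33 in controls, and these neighbours in the order overlapped in every group. Among 10125 tested genes with an exon length, Slfn2 ranked 282nd with D-2HG, 295th with L-2HG and 148th in controls. Slfn2 gave 80.5 ± 1.81% of the counts of the Slfn genes on chromosome 11 with D-2HG, 70.8 ± 4.46% with L-2HG and 83.7 ± 2.23% in controls. All those genes together summed to 341 ± 37.5 CPM with D-2HG, 360 ± 44.9 CPM with L-2HG and 711 ± 150 CPM in controls.

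**Figure D1:**
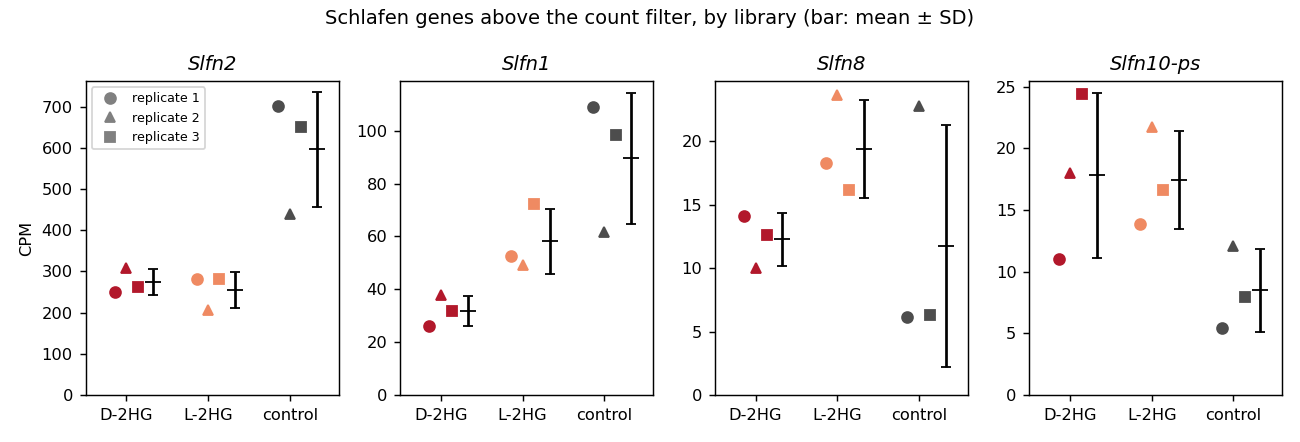
CPM of the 4 tested Schlafen genes in each of the 9 libraries, one panel per gene with its own axis from 0, groups along the x axis, symbols for the replicate number and bars for mean ± SD. Both treated groups lie below all controls for Slfn2, D-2HG alone does so for Slfn1, and control replicate 2 sits at 22.8 CPM for Slfn8 while the other controls are at 6.16 and 6.33.

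Slfn2 was lower with either enantiomer. It was measured at 250, 309 and 263 CPM in the D-2HG libraries, 281, 205 and 282 CPM in the L-2HG libraries, and 701, 439 and 650 CPM in the controls. Every treated library lay below every control, including control replicate 2, the lowest control. The level was 274 ± 31.1 CPM with D-2HG, 256 ± 43.8 CPM with L-2HG and 597 ± 139 CPM in controls (SD, n = 3). With D-2HG it was 2.18-fold lower than in controls (log2 fold change -1.12, SE 0.21, 95% interval -1.56 to -0.68, edgeR adjusted p 0.00294). With L-2HG it was 2.31-fold lower (log2 fold change -1.21, SE 0.21, 95% interval -1.65 to -0.76, edgeR adjusted p 0.00386). The calls held when any 1 of the 9 libraries was left out, with log2 fold changes of -1.32 to -0.998 for D-2HG and -1.41 to -1.10 for L-2HG. Both comparisons use the same 3 controls. Counts predicted from genomic DNA, read from sensory receptor genes, made up at most 0.334% of Slfn2's counts in any library.

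For Slfn2 the difference between the enantiomers did not pass. The log2 difference of D-2HG over L-2HG was 0.09, with a 95% interval of -0.35 to 0.53 (edgeR adjusted p 0.967). Little of its sequence recurs elsewhere: 4.27% of its 50-base windows also occurred in transcripts of another gene, all of them in Slfn4, which had 22 counts in all libraries together. The antisense gene Gm20234 overlaps Slfn2 in position, and the library kit does not mark strand, so strand cannot assign reads from the stretch they share. The windows were compared on both strands, and none occurred in another gene's transcripts without also occurring in Slfn4. Gm20234 was assigned 36 counts over the 9 libraries, against 11588 for Slfn2.

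Slfn1 was lowest with D-2HG and intermediate with L-2HG. It was measured at 26.1, 37.7 and 31.6 CPM in the D-2HG libraries, 52.6, 49.4 and 72.3 CPM in the L-2HG libraries, and 109, 61.5 and 98.3 CPM in the controls. The D-2HG libraries lay below all others, and the ranges of L-2HG and control overlapped through control replicate 2. With D-2HG it averaged 31.8 ± 5.77 CPM, against 89.6 ± 24.9 CPM in controls, a 2.82-fold lower level (log2 fold change -1.50, SE 0.25, 95% interval -2.01 to -0.98, edgeR adjusted p 0.00102). This call held in all 9 leave-outs, at log2 fold changes of -1.71 to -1.34. With L-2HG it averaged 58.1 ± 12.4 CPM, and the log2 fold change of -0.61 (95% interval -1.12 to -0.09) missed the threshold (edgeR adjusted p 0.0825). That value did pass without control replicate 2 (-0.83, adjusted p 0.00614) and without L-2HG replicate 3 (-0.85, adjusted p 0.0380).

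Between the enantiomers, every D-2HG library had less Slfn1 than every L-2HG library. The log2 difference was -0.89 (SE 0.26, 95% interval -1.42 to -0.35). It did not pass after adjustment (unadjusted p 0.00243, edgeR adjusted p 0.246). With 3 libraries per group, ranges stayed apart also for genes far from passing, such as Il2 (edgeR adjusted p 0.929). 11 of the 1815 windows of 50 bases in Slfn1 transcripts, 0.606%, occurred in another gene. The number of Slfn2 counts per Slfn1 count was 9.58, 8.21 and 8.31 in the D-2HG libraries, 5.33, 4.16 and 3.89 in the L-2HG libraries, and 6.43, 7.13 and 6.62 in the controls. As a description of these libraries, the 3 groups formed separate ranges in this ratio, highest with D-2HG and lowest with L-2HG, and control replicate 2 lay close to the other controls.

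**Figure D2:**
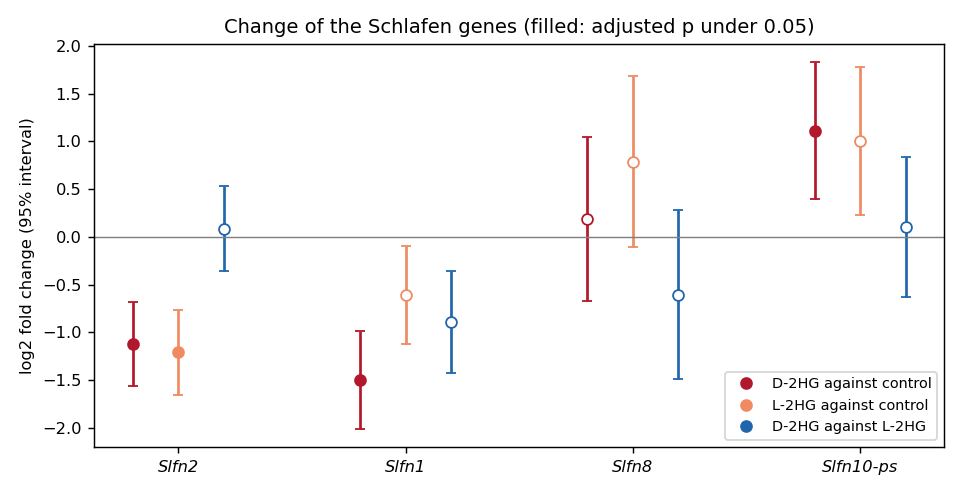
Log2 fold changes with 95% intervals for the 4 tested Schlafen genes for each enantiomer over control and for D-2HG over L-2HG, filled where the adjusted p was under 0.05. Slfn2 sits at -1.12 and -1.21 against control and at 0.09 between the enantiomers, while Slfn1 sits at -1.50, -0.61 and -0.89.

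Against all genes, 22.3% of the 10235 tested genes passed in either direction with D-2HG and 10.5% passed as lower. Of the 3 tested members 2, Slfn2 and Slfn1, passed as lower. With L-2HG 17.7% passed in either direction and 8.3% as lower, and 1 of the 3 members, Slfn2, passed as lower. With edgeR on all 9 libraries no member passed as higher, where 11.8% of genes did with D-2HG and 9.41% with L-2HG; limma-voom called all 3 members in both comparisons, with Slfn8 as higher. Between the enantiomers 0.303% of genes passed (0.254% lower and 0.0489% higher with D-2HG), and 0 of the 3 members did with edgeR. 1 of them, Slfn1, had an unadjusted p under 0.05, DESeq2 called 0 and limma-voom called Slfn1 (log2 difference -0.85, adjusted p 0.0228). With 3 genes, these shares say little about the family as a whole.

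Slfn8, a long-protein member, did not pass as lower with either enantiomer. It was measured at 14.1, 10.0 and 12.6 CPM in the D-2HG libraries, 18.3, 23.7 and 16.2 CPM in the L-2HG libraries, and 6.16, 22.8 and 6.33 CPM in the controls. Control replicate 2 was as high as the L-2HG libraries, and the other controls lay below all treated libraries. The log2 fold change was 0.18 with D-2HG (95% interval -0.68 to 1.04, edgeR adjusted p 0.765) and 0.79 with L-2HG (95% interval -0.11 to 1.68, edgeR adjusted p 0.186). Without control replicate 2 both passed, at 0.94 (adjusted p 0.0296) with D-2HG and 1.52 (adjusted p 0.00225) with L-2HG. Leaving out control replicate 1 or 3 instead gave -0.13 or -0.16 with D-2HG, so with edgeR the sign rests on 1 library. On all 9 libraries limma-voom, which weights libraries by their quality, called Slfn8 higher with D-2HG (0.85, adjusted p 0.00657) and with L-2HG (1.44, adjusted p 0.000133).

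In that library Slfn8 stood 1.76 higher on the log2 scale than the mean of the other controls, Slfn10-ps 0.81 higher, Slfn2 0.62 lower and Slfn1 0.74 lower (log2 differences of -0.62 and -0.74). Control replicate 2 also held 848 CPM of reads on sensory receptor genes, against 360 CPM in control replicate 1 and 212 CPM in control replicate 3. Subtracting the DNA background predicted from those genes left the Slfn8 values at 0.17 with D-2HG and 0.78 with L-2HG. The part of the satellite reads in these values was not tested. Slfn8 shares 14.6% of its 50-base windows with other genes, 10.1% with Slfn10-ps, so its counts are uncertain to that extent. D-2HG over L-2HG came to -0.60 on the log2 scale (95% interval -1.49 to 0.28, edgeR adjusted p 0.844).

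Slfn10-ps, a transcribed pseudogene next to Slfn8, had 11.01, 18.0 and 24.4 CPM in the D-2HG libraries, 13.9, 21.7 and 16.6 CPM in the L-2HG libraries, and 5.45, 12.1 and 7.96 CPM in the controls. Control replicate 2 was again the highest control and overlapped the D-2HG range, while all L-2HG libraries lay above all controls. It was 2.16-fold higher with D-2HG (log2 fold change 1.11, SE 0.34, 95% interval 0.40 to 1.83, edgeR adjusted p 0.0285). That call was lost without D-2HG replicate 2 (1.08, adjusted p 0.0771), D-2HG replicate 3 (0.84, adjusted p 0.141), control replicate 1 (0.86, adjusted p 0.155) or control replicate 3 (1.08, adjusted p 0.111). With L-2HG the log2 fold change was 1.01 (95% interval 0.23 to 1.78, edgeR adjusted p 0.0618), and without control replicate 2 it was 1.23 (adjusted p 0.0141). D-2HG over L-2HG was 0.10 (95% interval -0.63 to 0.84, edgeR adjusted p 0.976). Of its 50-base windows 19.7% occur in other genes, most often in Slfn9 (13.5%).

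The other long-protein members were near the level that genomic DNA alone would give. Slfn5 had 1, 13 and 3 counts in the D-2HG libraries, 8, 1 and 3 in the L-2HG libraries, and 0, 0 and 2 in the controls. The sums of 17, 12 and 2 counts stand beside 10.1, 12.01 and 5.03 counts predicted from the sensory receptor genes for D-2HG, L-2HG and control. The 13 counts of D-2HG replicate 2 stand against a prediction of 3.50 and the 8 counts of L-2HG replicate 1 against 3.63, and these are the highest libraries. A count of 0 allows up to 3 counts, which is 0.628 CPM in control replicate 1 and 1.51 CPM in control replicate 2. With no count filter, Slfn5 did not pass with D-2HG (edgeR adjusted p 0.166) or with L-2HG (adjusted p 0.101), and no fold is given against controls at or under that floor.

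Slfn9 had 5, 3 and 1 counts in the D-2HG libraries, 3, 2 and 4 in the L-2HG libraries, and 3, 1 and 4 in the controls. Its sums of 9, 9 and 8 counts compare with 9.49, 11.3 and 4.74 predicted, so expression of Slfn9 above the DNA background was not detectable at this depth. The edgeR adjusted p with no count filter was 0.956 for D-2HG and 0.552 for L-2HG. The element TTTCGTTTTC was thus present in a gene with 317 counts over the 9 libraries, Slfn8, and in one with 26, Slfn9. Of the untested relatives, Slfn3 had 14, 18 and 21 summed counts in the D-2HG, L-2HG and control groups, with 5.43, 6.47 and 2.71 predicted. Slfn4 had 4, 8 and 10. Slfn14, Slfnl1 and Slfn5os, the antisense transcript of Slfn5, had 2, 7 and 1 counts in all.

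**Figure D3:**
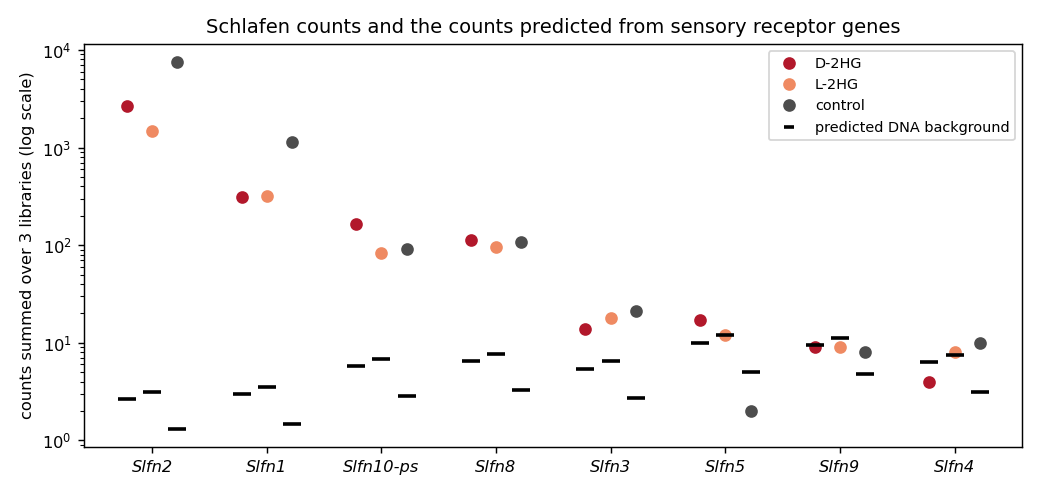
Counts of 8 Schlafen genes summed over the 3 libraries of each group (points, log axis), with the count predicted from genomic DNA (black dashes). Slfn2, Slfn1, Slfn10-ps and Slfn8 stand at least 12.2 times above the prediction in each group, and the points of Slfn9 lie within a factor of 1.69 of their dashes.

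Of 40 annotated genes between the members or within 200 kb of them, 15 were tested, 11 of them outside the family. With D-2HG 2 of the 11 passed, beside 22.3% of all tested genes. Nle1, a Notchless homologue that acts in ribosome assembly, was at 185 ± 41.1 CPM with D-2HG, against 92.1 ± 23.5 CPM in controls (log2 fold change 1.01, edgeR adjusted p 0.0213). Its call was lost without D-2HG replicate 3, control replicate 1 or control replicate 3 (0.81 to 1.02, adjusted p up to 0.108). AI662270, an RNA with no assigned protein, was at 112 ± 6.44 CPM with D-2HG, against 176 ± 30.4 CPM in controls (-0.65, edgeR adjusted p 0.0282), a call lost in 5 of the 9 leave-outs (each D-2HG replicate and control replicates 1 and 3, adjusted p up to 0.142).

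With L-2HG AI662270 was at 79.8 ± 16.2 CPM (log2 fold change -1.10, edgeR adjusted p 0.00666), and this call held in every leave-out. None of the 11 passed between the enantiomers with edgeR. The closest tested genes on either side of the stretch that holds the members, Nle1 and AI662270, had their middles at -160.5 kb and 160.0 kb from the Slfn2 start. AI662270 lies between the untested relatives Slfn3 and Slfn14.

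**Figure D4:**
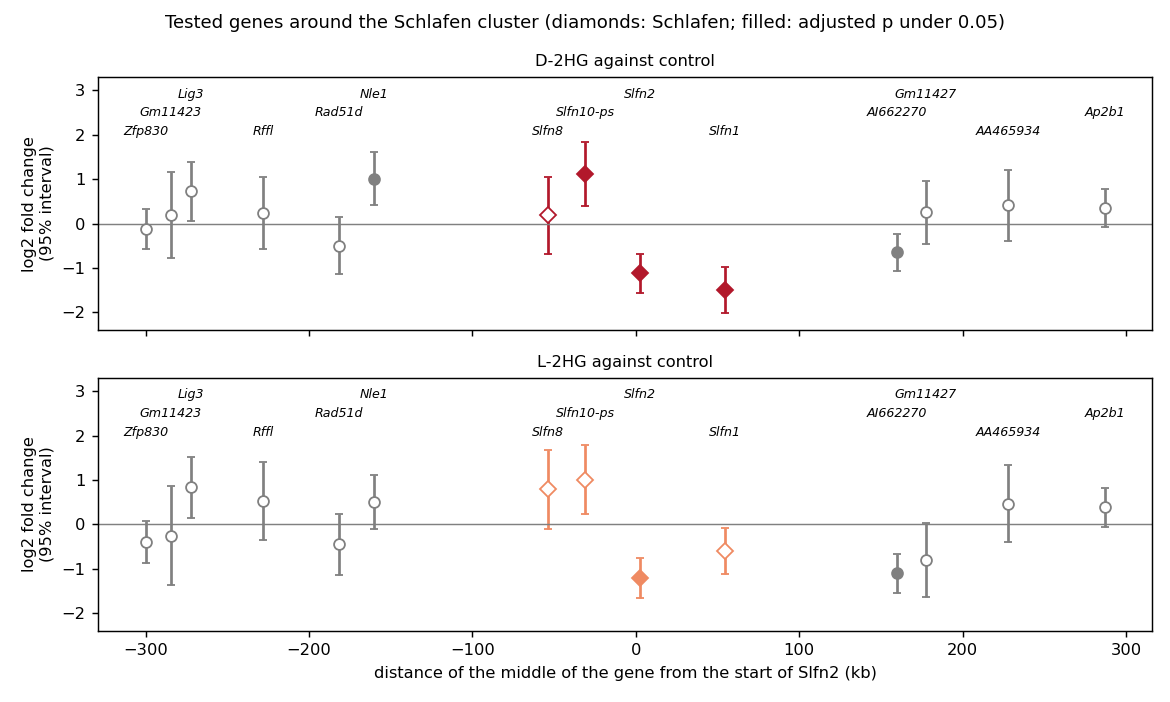
Log2 fold changes with 95% intervals of tested genes around the Schlafen cluster, placed by the distance in kb of each gene's middle from the start of Slfn2, for D-2HG (top) and L-2HG (bottom) against control. Filled symbols passed the threshold; Slfn2 and Slfn1 lie below 0 in both panels and Slfn10-ps and Slfn8 above it.

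The members differed in which other genes they moved with. Over the 9 libraries, Slfn1 and Slfn2 had a Pearson r of 0.78 in log2 CPM, Slfn2 and Slfn8 of -0.73, and Slfn1 and Slfn8 of -0.42. Each member was set against 8526 tested genes averaging at least 5 CPM, with numbered Gm symbols and Rik symbols left out. Among these, the 3 most like Slfn1 were Irf1 (r = 0.98), an interferon-inducible transcription factor, and the interferon-inducible GTPase genes Igtp (0.98) and Ifi47 (0.97). Those most like Slfn2 were Vta1 (0.995), an endosomal sorting factor, Snhg5 (0.99), a snoRNA host gene, and Atxn10 (0.99), the ataxin-10 gene. For Slfn8 they were Zbtb33 (0.95), Chd9 (0.95) and Zfp869 (0.94), which encode nuclear proteins. An r of at least 0.9 was reached by 88 genes for Slfn1, 662 for Slfn2 and 35 for Slfn8. All of these share the 9 libraries, their depth and the shift between groups, and the values are descriptions only.

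The genes nearest to Slfn1 had its order of groups, lowest with D-2HG and highest in controls. As they were picked by r over these same libraries, that order follows largely from the choice. Irf1 averaged 52.8 ± 12.05 CPM with D-2HG, 121 ± 22.7 CPM with L-2HG and 196 ± 41.5 CPM in controls. Igtp averaged 31.4 ± 1.55, 109 ± 34.0 and 247 ± 75.6 CPM in that order. Vta1, nearest to Slfn2, averaged 112 ± 11.7 CPM with D-2HG, 106 ± 14.8 CPM with L-2HG and 191 ± 35.6 CPM in controls.

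Other regulators of T cell quiescence were read from the same fit. Of 20 tested genes of that list, 2 were higher and 1 was lower with D-2HG, beside 22.3% of all genes that passed in either direction, and the list's median log2 fold change was 0.01 beside 0.04 over all genes. Without D-2HG replicate 3, control replicate 1 or control replicate 3, 1 of these genes passed in all. Klf6, a Krüppel-like transcription factor, was at 16.4 ± 4.16 CPM with D-2HG, against 35.2 ± 4.39 CPM in controls (log2 fold change -1.12, edgeR adjusted p 0.00805), and the call held in every leave-out. Tob2, an antiproliferative gene of the BTG/TOB family, was at 121 ± 49.5 CPM, against 47.7 ± 8.73 CPM in controls (1.35, edgeR adjusted p 0.0110). Rbl2, a retinoblastoma-like pocket protein gene, was at 12.2 ± 4.41 CPM, against 5.56 ± 0.782 CPM in controls (1.09, edgeR adjusted p 0.0367). Tob2's call was lost without D-2HG replicate 3, control replicate 1 or control replicate 3 (adjusted p up to 0.0593), and Rbl2's in 5 of the 9 leave-outs (D-2HG replicates 1 and 3, L-2HG replicate 1, control replicates 1 and 3, adjusted p up to 0.175).

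With L-2HG 1 quiescence gene was higher and none was lower, beside 17.7% of all genes, and the list's median was 0.28 beside 0.05 over all genes. The count was 0 without control replicate 3, 2 without control replicate 2 or D-2HG replicate 3, and 4 without L-2HG replicate 3. The gene was Tsc2, an inhibitor of mTORC1 signalling, at 106 ± 9.31 CPM, against 56.8 ± 9.88 CPM in controls (0.90, edgeR adjusted p 0.0152), lost without control replicate 3 (0.73, adjusted p 0.104). Foxo1, Foxp1 and Klf2, transcription factors that maintain naive T cells, did not pass in any of the 3 comparisons. Foxo1 had log2 fold changes of -0.10 (95% interval -0.59 to 0.39) with D-2HG and 0.26 (-0.25 to 0.77) with L-2HG, and Foxp1 of 0.07 (-0.37 to 0.51) and -0.01 (-0.45 to 0.44). Klf2, low at 5.16 CPM with D-2HG, 5.66 CPM with L-2HG and 8.42 CPM in controls, had -0.72 (-1.47 to 0.03) and -0.47 (-1.27 to 0.34).

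A list beside Slfn2 joined angiogenin, its inhibitor and transfer RNA methyltransferases with genes of the integrated stress response, a pathway that slows translation. Of its 13 tested genes, 2 were higher and 0 lower with D-2HG, beside 22.3% of all genes in either direction. The list's median log2 fold change was 0.01 there, beside 0.04 over all genes. With L-2HG 1 was higher and 2 were lower, beside 17.7% of all genes, and the median was 0.10 beside 0.05. In the leave-outs the sums ran from 1 to 6 with D-2HG and from 0 to 5 with L-2HG, highest without control replicate 2 in both. Angiogenin itself, Ang, the nuclease of the list, did not pass the count filter. Eif2ak4, the amino acid-sensing kinase GCN2, was at 31.7 ± 11.6 CPM with D-2HG, against 12.3 ± 1.64 CPM in controls (1.37, edgeR adjusted p 0.00569), and held in every leave-out. Atf4, the pathway's main transcription factor, was at 298 ± 52.4 CPM with L-2HG, against 451 ± 86.2 CPM in controls (-0.59, edgeR adjusted p 0.0473), a call lost in 7 of the 9 leave-outs (all but L-2HG replicate 3 and control replicate 2, adjusted p up to 0.163).

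The listed interferon genes were lower in larger numbers. The lists were chosen with earlier results of these data known, so these counts describe the libraries and are not an independent test. Over all tested genes, 10.5% passed as lower with D-2HG, 8.3% with L-2HG and 0.254% with D-2HG against L-2HG. Of 14 tested interferon targets, 10 were lower and 0 higher with D-2HG (median log2 fold change -2.12), 8 were lower and 0 higher with L-2HG (median -0.86), and 8 were lower and 0 higher with D-2HG than with L-2HG (median -1.03, beside 0.01 over all genes). Isg15, Ifit1, Ifit3, Mx1, Rsad2 and Oas1a, also listed as targets, did not pass the count filter. Zbp1 and Rtp4 averaged 2.09 and 2.62 CPM with D-2HG, against 16.4 and 13.0 CPM in controls. These 2 genes thus passed the filter through the other groups. The count of targets called with D-2HG stayed at 10 to 12 in the leave-outs. The L-2HG count dropped to 2 without control replicate 3 and to 4 without control replicate 1 or L-2HG replicate 1, and the count between the enantiomers was 2 without L-2HG replicate 1, 3 without D-2HG replicate 3, and 4 without D-2HG replicate 1, D-2HG replicate 2 or L-2HG replicate 3. Gbp2, a guanylate-binding protein gene, was at 15.4 ± 1.86 CPM with D-2HG, 82.7 ± 17.4 CPM with L-2HG and 282 ± 37.7 CPM in controls. Its log2 fold changes were -4.21 (edgeR adjusted p 1.05e-09) and -1.78 (adjusted p 0.000159) against control and -2.43 (adjusted p 1.97e-05) between the enantiomers, and all held in every leave-out. Of the 17 genes of interferon signalling, 5 were lower and 2 higher with D-2HG, beside 22.3% of all genes in either direction. With L-2HG 3 of the 17 were lower and 2 higher, beside 17.7% of all genes. Their sum with D-2HG was 4 without control replicate 3, and with L-2HG it ran from 0 without control replicate 3 to 8 without control replicate 2. Irf1, whose levels are given above, passed as lower with D-2HG (log2 fold change -1.89, edgeR adjusted p 3.89e-05), a call that held in every leave-out.

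Set beside these, Slfn2 had log2 fold changes of -1.12 with D-2HG and -1.21 with L-2HG, and Slfn1 of -1.50 and -0.61, and neither gene passed between the enantiomers with edgeR. Slfn8 did not pass as lower in any of the comparisons. Of 12 tested T cell activation genes, 3 were lower and 1 was higher with D-2HG, beside 22.3% of all genes in either direction. With L-2HG 2 were lower and 0 higher, beside 17.7% of all genes. Without control replicate 3 these sums were 2 and 0, and without control replicate 2 the L-2HG sum was 7. Tnfrsf9, the co-stimulatory receptor 4-1BB, was at 923 ± 109 CPM with D-2HG, 1022 ± 190 CPM with L-2HG and 2123 ± 459 CPM in controls. Its log2 fold changes were -1.20 (edgeR adjusted p 0.00215) with D-2HG and -1.05 (adjusted p 0.00894) with L-2HG, the second lost without control replicate 3 (-1.09, adjusted p 0.0610). Irf4, a transcription factor induced by the antigen receptor, was at 1190.3 ± 86.2 CPM with D-2HG, against 664 ± 103 CPM in controls (0.84, edgeR adjusted p 0.00897), lost without control replicate 3 (0.73, adjusted p 0.0849).

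**Figure D5:**
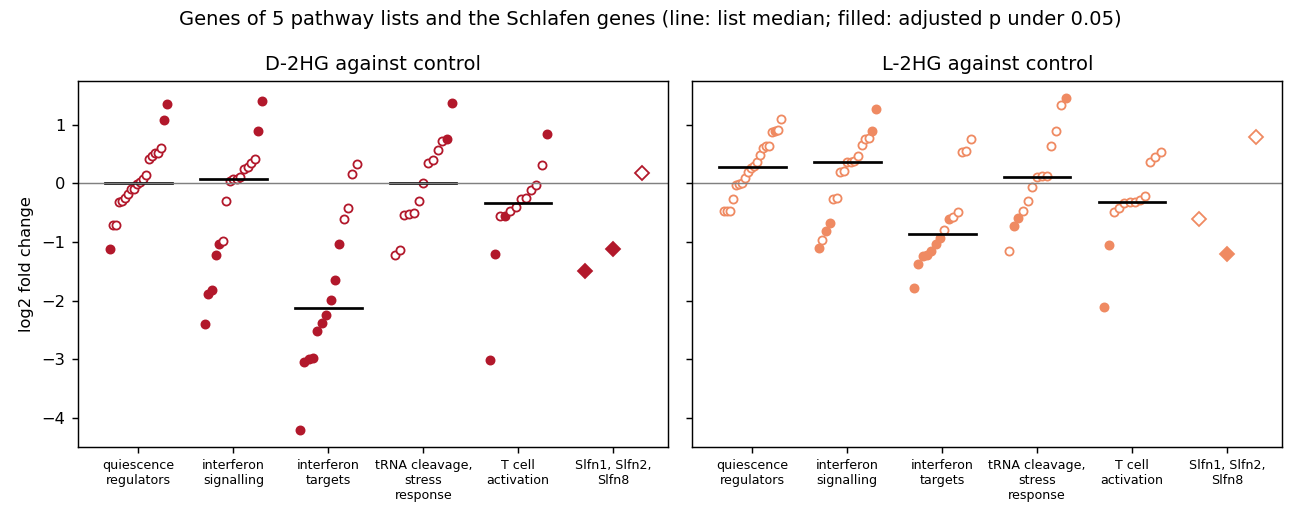
Log2 fold changes of the tested genes of 5 pathway lists, sorted by value, and of Slfn1, Slfn2 and Slfn8 (diamonds, in that order), for D-2HG (left) and L-2HG (right) against control, with a line at each list's median and filled symbols for genes that passed. The interferon targets have medians of -2.12 and -0.86, and the quiescence regulators of 0.01 and 0.28.

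Markers of other cells were also compared across the groups. The summed level of the 7 B cell markers was 142 to 150 CPM with D-2HG, 144 to 206 CPM with L-2HG and 179 to 326 CPM in controls, and that of the 9 CD8 T cell markers was 3414 to 3887, 3176 to 4444 and 3863 to 6314 CPM. Of these ranges, only that of the B cell markers with D-2HG lay wholly below the controls. The 5 dendritic cell markers summed to 23.1 to 39.3 CPM with D-2HG, 23.7 to 34.3 CPM with L-2HG and 15.0 to 23.2 CPM in controls, and the 4 CD4 T cell markers to 13.5 to 16.5, 11.8 to 17.2 and 9.69 to 11.9 CPM. Of these, the CD4 markers with D-2HG and the dendritic cell markers with L-2HG lay wholly above the controls. The part of these other cells in the Slfn2, Slfn1 and Slfn8 values was not tested.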

How the data were processed

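Per the labels' protocols, polyadenylated RNA of each sample was turned into cDNA with oligo(dT) primers and made into libraries with Nextera XT, which does not mark strand. Reads were processed with STAR 2.7.3a and featureCounts on mm10, per the submitters' processing notes; their settings are not given in the sources used here. The authors deposited raw counts per gene symbol and a second table of signal, the counts divided by 1 size factor per library, which was used only for identifiers and to compare size factors. Of 55011 genes, 11256 had no count. edgeR 4.0.16 (R 4.3.3) tested 10235 genes kept by its filter (minimum count 10), with TMM scaling, all 9 libraries, 1 mean per group, a quasi-likelihood test and Benjamini-Hochberg adjustment. It was also run on simulated counts with the same spread for every gene and no differences in library quality. That run does not show how the test performs on libraries as uneven as these. Limits set by a count of 0 cover counting error only; the 95% intervals come from the fit and include variation between libraries. Alternatives used DESeq2 1.42.0, limma 3.58.1, other scalings and filters, thinning, a replicate block and leaving out each library. Genomic DNA background was the count per exon base over 1874 sensory receptor genes (the highest 5% left out) times exon length. Promoters came from RefSeq (GRCm38.p6). Within each group, libraries varied beyond sampling noise (chi-square per degree of freedom 5.26 to 34.6).

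The members and gene lists were chosen with earlier results of these data known. Genes named are the Slfn symbols, for each list and comparison up to 4 genes that passed, by adjusted p, tested genes within 200 kb, the 3 genes most like each tested member, and Cd8a and Cd3e; Foxo1, Foxp1, Klf2 and Ang were added after their values were seen. Some genes that the rule takes are left out of the text and of the locus plot and are not reported here.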

Additional observations from a re-analysis of the deposited data

How the results depend on the processing

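Slfn2's lower level with either enantiomer and Slfn1's with D-2HG kept direction and call under all alternatives run. Calls with D-2HG against control numbered 2278, and 5617 with limma-voom, 1341 with no count filter, 745 after thinning and 384 to 4257 in leave-outs. With L-2HG they numbered 1812, and 5180 with limma-voom, 1195 at a mean count of at least 50, 427 with only the 2 groups, 681 after DNA background subtraction, 698 after thinning and 65 to 4108 in leave-outs. Between the enantiomers they numbered 31, and 177 with limma-voom, 9 after thinning and 10 to 60 in leave-outs. The extremes for the control comparisons were without control replicate 3 and without control replicate 2. Members called with L-2HG numbered 1, and 3 with limma-voom, 2 with DESeq2 size factors, 2 with no filter and 1 to 3 in leave-outs; with D-2HG they numbered 2, and 3 with limma-voom and 2 to 3 in leave-outs; between the enantiomers limma-voom called 1. List genes called with D-2HG numbered 26, and 47 with limma-voom and 16 after thinning; with L-2HG 19, and 43 with limma-voom, 8 with only the 2 groups, 9 after background subtraction, 10 after thinning and 2 to 32 in leave-outs; between the enantiomers 10, and 3 after thinning and 3 to 10 in leave-outs. Slfn1 with L-2HG passed with limma-voom (-0.78), DESeq2 size factors (-0.74) and no filter (-0.90), with -0.85 to -0.47 in leave-outs, and Slfn1 between the enantiomers with limma-voom (-0.85). Slfn8 with limma-voom passed, at 0.85 with D-2HG and 1.44 with L-2HG; thinning gave -0.075 with D-2HG, and leave-outs -0.16 to 0.94 and 0.43 to 1.52. Slfn8 and Slfn10-ps averaged under 50 counts and have no value at that minimum. Slfn2 between the enantiomers ranged from -0.026 to 0.21 in leave-outs and Slfn10-ps from -0.14 to 0.36. Slfn10-ps with D-2HG lost its call with DESeq2, no filter and thinning (adjusted p 0.0670, 0.0928 and 0.104). The causes were not tested.

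The labels do not say whether replicate numbers pair the samples. Correlations of same-numbered deviations ran from -0.17 to 0.28 and those of differently numbered ones from -0.30 to 0.28. With 3 libraries per group these values cannot decide it. With the number as a replicate block, 2314 genes passed with D-2HG, 2284 with L-2HG and 35 between the enantiomers, members called stayed at 2, 1 and 0, and Slfn10-ps between the enantiomers was -0.0065.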
